A study of Mus musculus with 2 samples.

Results

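Genes of the Bcl2 family, which decide at the mitochondrion whether a cell survives or dies, were examined in mammary basal cells from control mice and from mice given clodronate liposomes. The set was chosen by name and held 10 of the 49492 genes of the count table. They were the pro-survival genes *Bcl2*, *Bcl2l1* and *Mcl1*, the effectors *Bax* and *Bak1*, and the BH3-only genes *Bcl2l11*, *Bbc3*, *Pmaip1*, *Bid* and *Bad*. All 10 were protein-coding, were counted in both libraries and were among the 17356 genes tested, which had at least 20 counts over both libraries. No member lay past 1.5-fold between the libraries. *Mcl1* and *Bcl2l11* were higher in CL_basal, and *Bcl2l1*, *Bax*, *Bak1* and *Bid* were lower, each beyond the counting error of the deposited counts. *Bcl2*, *Bbc3*, *Pmaip1* and *Bad* did not pass the test.

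Clodronate liposomes are lipid vesicles carrying a drug that kills the phagocytes which swallow them, and the study used them to deplete macrophages from mice that its methods describe as young adult females of wild type. They were injected into the peritoneum, so the exposure was not limited to the mammary gland. Ctrl_basal came from wild-type mice whose treatment the labels give as none and the design text as saline, and CL_basal came from wild-type mice given the liposomes. Both were labelled Day 7, and both were primary basal cells sorted as CD24+ CD29hi cells after removal of blood and endothelial lineages. How many mice were pooled into a library was not given in the labels or the methods.

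There was 1 library per group, so no difference given here has a replicate check. The tests compare the reads of these 2 libraries, not the conditions, and every interval covers counting error only. Ctrl_basal held 37846008 counts and CL_basal held 38962512. Of the values between 1 and 20 counts, 67.9% were even in Ctrl_basal and 68.7% in CL_basal, which leaves intervals too narrow if the mates of a read pair were counted separately. Intervals were therefore also computed with all counts halved. The basal and myoepithelial markers, among them *Krt5*, *Krt14* and *Acta2*, summed to a CPM (counts scaled to library size) of 19270 in Ctrl_basal and 20210 in CL_basal, and all 10 were detected in both libraries. Of these 7 were higher in CL_basal and 3 lower, namely *Krt5* (log2 difference -0.23), *Acta2* (-0.03) and *Oxtr* (-0.13). All 10 had an adjusted p under 0.05, against 57.8% of all genes with at least 400 counts. The 13 luminal markers, none of them at 0 in either library, summed to 5154 and 3229 CPM, a ratio of 0.627, and all 13 were lower in CL_basal, 12 of them with an adjusted p under 0.05, where 22.6% of all tested genes were lower. Macrophage markers summed to 26.3 and 24.4 CPM, with *Fcgr1* at 0 in Ctrl_basal. Among them *Mrc1*, at 168 and 86 counts, and *Cd68*, at 233 and 185, were lower in CL_basal, while *Mertk*, at 353 and 421, was higher. With counts halved the interval of *Mrc1* still excluded 0, while those of *Cd68*, -0.74 to 0.07, and *Mertk*, -0.05 to 0.55, included it. Fibroblast markers summed to 255.5 and 208.4 CPM and endothelial markers to 363.9 and 290.7, each sum lower in CL_basal, although *Emcn*, at 154 and 215 counts, was higher, as was *Col3a1*, at 2330 and 2508, whose interval with counts halved, -0.01 to 0.22, included 0. T cell markers summed to 10.38 and 12.04 CPM, B cell and plasma cell markers to 14.7 and 19.3 with *Mzb1* at 0 in CL_basal, and squamous keratinocyte markers to 34.5 and 36.1 with *Flg* at 0 in both libraries and *Krtdap* at 0 in Ctrl_basal. The near-equal squamous sums held members in both directions: *Krt1*, *Krt10* and *Calml3* were higher in CL_basal, at 19 and 367, 38 and 262, and 24 and 93 counts, while *Sbsn* was lower, at 1196 and 615. The part of these markers in any result on the Bcl2 family was not tested. In such bulk samples, fewer cells of a type and less RNA per cell cannot be told apart.

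In healthy cells the pro-survival proteins hold the effectors and the BH3-only proteins in check. Under stress or on loss of growth signals, BH3-only proteins accumulate or are switched on, bind the groove of the pro-survival proteins and free BAX and BAK to open the outer mitochondrial membrane. Cytochrome c then leaves the mitochondrion and caspases are activated. In the mammary gland this machinery is known for the clearing of the duct lumen in puberty and for the cell loss of involution after weaning. Much of its control lies after transcription, in phosphorylation, cleavage and protein turnover, which counts of RNA do not show.

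The members share a short BH3 segment, the helix through which the family binds one another. The coding sequence of this segment is shown because it is what the 3 roles have in common and where they differ in letters. For 9 members it was read from GENCODE M21 transcripts on GRCm38, over 36 bases that start 3 codons before a conserved leucine codon. Capitals mark the leucine codon and the codons of the small residue and aspartate at the core of the segment.
Bcl2: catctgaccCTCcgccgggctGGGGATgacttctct
Bcl2l1: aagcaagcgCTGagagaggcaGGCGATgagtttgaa
Mcl1: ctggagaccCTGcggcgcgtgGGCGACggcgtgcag
Bax: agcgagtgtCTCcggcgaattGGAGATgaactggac
Bak1: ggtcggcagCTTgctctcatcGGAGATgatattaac
Bcl2l11: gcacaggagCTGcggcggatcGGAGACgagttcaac
Bbc3: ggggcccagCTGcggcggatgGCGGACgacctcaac
Bid: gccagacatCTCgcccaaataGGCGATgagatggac
Bad: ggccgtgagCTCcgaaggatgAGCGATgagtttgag
The leucine codon was CTC or CTG in 8 of the 9 and CTT in *Bak1*. The aspartate codon was GAC in *Mcl1*, *Bcl2l11* and *Bbc3* and GAT in the other six. The small residue before it was encoded by GCG in *Bbc3*, by AGC in *Bad* and by a GGN codon in the others. The segment lay in exon 1 of *Bcl2* and *Mcl1*, exon 2 of *Bcl2l1*, exon 3 of *Bax*, *Bcl2l11*, *Bbc3* and *Bad*, and exon 4 of *Bak1* and *Bid*, counted in the transcript used.

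*Mcl1* was by far the most abundant member in both libraries. Levels between genes were compared as TPM, a scale on which counts are divided by the exon length in the table and each library has the same sum. *Mcl1* stood at 328.5 TPM in Ctrl_basal and 375.4 TPM in CL_basal, which was 71.8% and 76.9% of the summed TPM of the 10 members. Its level exceeded that of 97.6% of all tested genes in Ctrl_basal and of 97.8% in CL_basal. The second member in Ctrl_basal was *Bax* at 26.3 TPM, followed by *Bak1* at 23.8, *Pmaip1* at 21.3 and *Bcl2l1* at 17.1. The lower levels were those of *Bad* at 11.6 TPM, *Bid* at 8.85, *Bcl2l11* at 8.26, *Bbc3* at 7.53 and *Bcl2* at 4.25. Neighbours whose counting intervals overlapped in Ctrl_basal were *Bax* with *Bak1*, *Bak1* with *Pmaip1*, *Bid* with *Bcl2l11*, and *Bcl2l11* with *Bbc3*. *Mcl1*, *Bcl2l1*, *Bad* and *Bcl2* did not overlap with a neighbour. In CL_basal *Bax* moved from rank 2 to rank 4 and *Pmaip1* from rank 4 to rank 2. *Bcl2l11* and *Bid* exchanged ranks 7 and 8, and the other six members kept their ranks. *Bcl2* was lowest per length in both libraries, although with 558 and 509 counts it was not lowest in reads, since its exons span 9157 bases. The order by CPM, which takes no account of length, put *Bcl2l1* at rank 2 and *Bcl2l11* at rank 3 in Ctrl_basal.

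**Figure D1:**
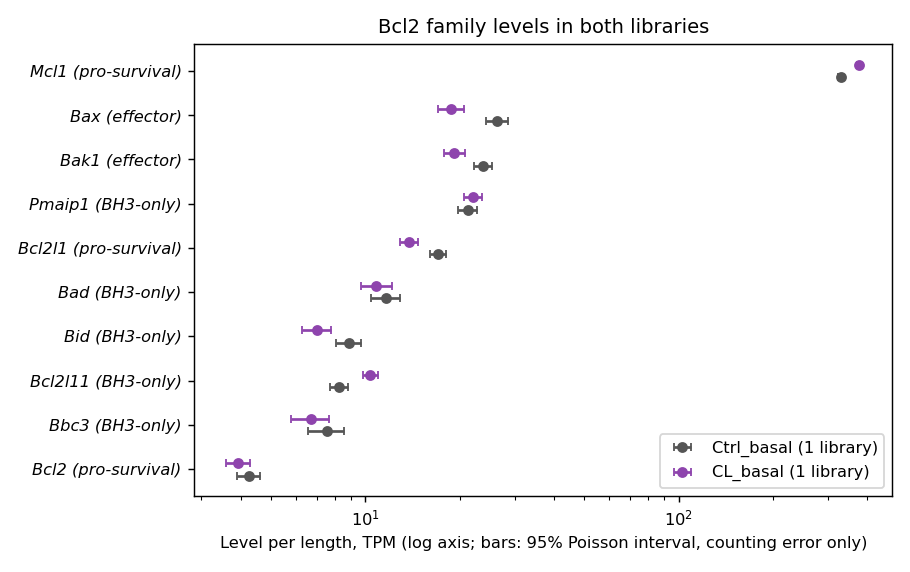
Level of each member in TPM on a log axis in Ctrl_basal and CL_basal, 1 library each, with 95% exact Poisson intervals for counting error. *Mcl1* stands at 328.5 and 375.4 TPM, far above the other nine members, and *Bcl2* is lowest at 4.25 and 3.93 TPM.

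Among the pro-survival genes, *Mcl1* was higher and *Bcl2l1* was lower in CL_basal, while *Bcl2* did not pass the test. *Mcl1* encodes a short-lived protein that restrains BAK and binds most BH3-only proteins, and mammary epithelium is known to depend on it. The gene lies on chromosome 3 at 95658788 to 95663176, plus strand, in GRCm38. It had 16078 counts in Ctrl_basal and 18146 in CL_basal. CL_basal was thus the higher library, by 0.17 on the log2 scale (95% interval 0.14 to 0.20; adjusted p = 1.76e-26, exact binomial test on reads), or 12.6%. With counts halved the interval was 0.13 to 0.21, and with the trend on mean expression removed the value was 0.09. The very small p reflects the large count, since the difference itself was among the smaller of the family.

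*Bcl2l1* encodes the pro-survival protein BCL-XL, and a shorter splice form with the opposite action, BCL-XS, comes from the same gene and was not separated by these counts. It lies on chromosome 2 at 152780668 to 152831728, minus strand. It had 1124 counts in Ctrl_basal and 892 in CL_basal, or 17.1 and 13.7 TPM. The library from treated mice was lower by 20.8% (log2 difference -0.34, 95% interval -0.47 to -0.21; adjusted p = 1.16e-06, exact binomial test), and the interval with counts halved was -0.52 to -0.16. *Bcl2*, the founding pro-survival gene, lies on chromosome 1 at 106538178 to 106714274, minus strand, and had 558 counts in Ctrl_basal and 509 in CL_basal. Its log2 difference of -0.14 had a 95% interval of -0.31 to 0.04 (adjusted p = 0.208, exact binomial test), which includes 0. Within its exons 558 bases were shared with *D630008O14Rik* on the opposite strand, which had 114 and 98 counts. Summed over the pro-survival genes, Ctrl_basal held 349.9 TPM and CL_basal 393.1 TPM. Without *Mcl1* the sums were 21.4 and 17.7 TPM, so the order of the libraries turned around when *Mcl1* was left out.

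Both effectors were lower in CL_basal. *Bax* encodes a protein that moves from the cytosol into the outer mitochondrial membrane and forms pores there. It lies on chromosome 7 at 45461697 to 45466898, minus strand, and had 594 counts in Ctrl_basal and 419 in CL_basal, or 26.3 and 18.8 TPM. The difference of -0.51 on the log2 scale, a level 29.5% lower, was the largest of the family in either direction (95% interval -0.69 to -0.32; adjusted p = 2.1e-07, exact binomial test). With counts halved the interval was -0.77 to -0.24. Both intervals reach a size past 0.585, the log2 value of 1.5-fold, so the counts leave room for a difference of 1.5-fold. *Bax* shared 192 bases, 12.2% of its exon length, with *RP23-218K15.5* on the same strand, which had 345 and 267 counts, and how reads in the shared bases were divided is not given in the sources used here.

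*Bak1*, the effector that sits in the mitochondrial membrane already in healthy cells, lies on chromosome 17 at 27019810 to 27029009, minus strand. It had 819 counts in Ctrl_basal and 655 in CL_basal, or 23.8 and 19.2 TPM. It was 20.2% lower in CL_basal (log2 difference -0.33, 95% interval -0.48 to -0.18; adjusted p = 8.04e-05, exact binomial test), and the interval with counts halved was -0.54 to -0.11. It shared 357 bases, 14.8% of its exon length, with *Ggnbp1* on the opposite strand, which had 732 and 580 counts and was lower in CL_basal too. The 2 effectors together summed to 50.08 TPM in Ctrl_basal and 38.04 TPM in CL_basal.

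Of the 5 BH3-only genes 1 was higher, 1 was lower and 3 did not pass the test, where 22.7% of all tested genes were higher and 22.6% lower. *Bcl2l11* encodes BIM, a BH3-only protein that binds all pro-survival members and is induced when growth factor or adhesion signals are lost. The gene lies on chromosome 2 at 128126038 to 128162547, plus strand. It had 950 counts in Ctrl_basal and 1180 in CL_basal, or 8.26 and 10.4 TPM. This was 23.8% higher in CL_basal (log2 difference 0.31, 95% interval 0.18 to 0.43; adjusted p = 4.99e-06, exact binomial test), and 0.13 to 0.49 with counts halved. It was the highest value of the 10, and none of its exon bases was shared with another gene of the table.

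*Bid* encodes a protein that caspase-8 cleaves, which links death receptors to the mitochondrion. It lies on chromosome 6 at 120891930 to 120916853, minus strand, with 450 counts in Ctrl_basal and 351 in CL_basal. It was 22.1% lower in CL_basal (log2 difference -0.36, 95% interval -0.57 to -0.16; adjusted p = 0.00146, exact binomial test). With counts halved the interval was -0.65 to -0.07 and the adjusted p of the exact binomial test rose to 0.0508, past the threshold. It shared 628 bases, 17.7% of its exon length, with *Bcl2l13* on the opposite strand, which had 962 and 930 counts.

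*Pmaip1* encodes NOXA, a p53 target that binds MCL1 and promotes its breakdown. It had 806 counts in Ctrl_basal and 827 in CL_basal, the smallest difference of the family (log2 difference 0.03, 95% interval -0.11 to 0.18; adjusted p = 0.756, exact binomial test). With scaling by total counts its value turned to -0.0048. The gene is on chromosome 18 at 66458604 to 66465550, plus strand. *Bbc3*, which encodes PUMA, a p53 target that binds every pro-survival member, lies on chromosome 7 at 16308393 to 16318205, plus strand. It had 229 counts in Ctrl_basal and 201 in CL_basal, the fewest reads of the family (log2 difference -0.19, 95% interval -0.47 to 0.09; adjusted p = 0.275, exact binomial test). *Bad*, whose protein is held inactive by phosphorylation downstream of growth factor signals, lies on chromosome 19 at 6941861 to 6951898, plus strand. It had 334 counts in Ctrl_basal and 308 in CL_basal (log2 difference -0.12, 95% interval -0.35 to 0.11; adjusted p = 0.424, exact binomial test). *Bad* had the largest shared part of the family as a share of exon length, 25.8% or 517 bases, with *Gpr137* on the opposite strand at 133 and 190 counts. The intervals of these 3 genes with counts halved leave room for a difference of up to -0.59 for *Bbc3*, which is past 1.5-fold, -0.45 for *Bad* and 0.24 for *Pmaip1*. Summed over the 5 BH3-only genes, the libraries held 57.5 TPM in Ctrl_basal and 57.0 TPM in CL_basal.

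**Figure D2:**
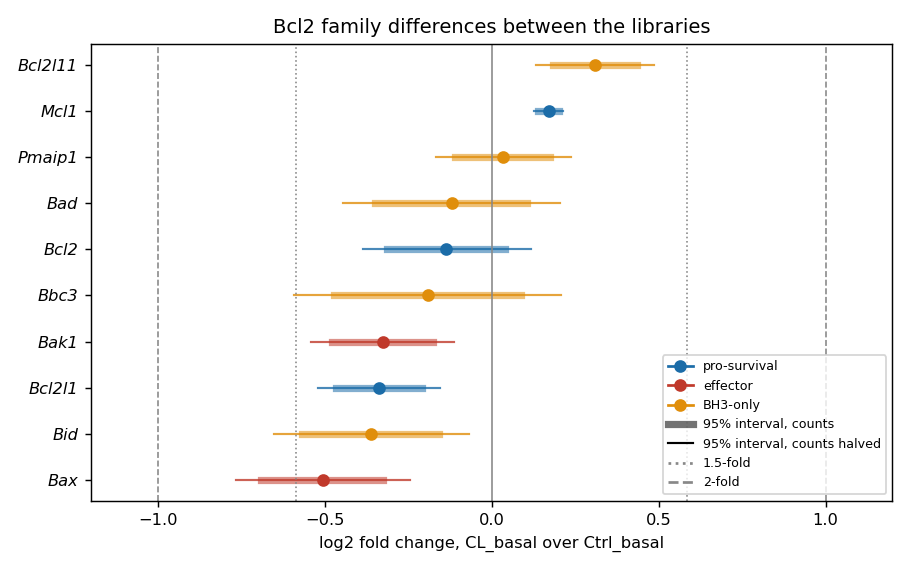
Log2 difference of CL_basal minus Ctrl_basal for each member, ordered by value and coloured by role, with 95% exact intervals for counting error from the counts as deposited and from counts halved. All 10 values lie between -0.51 for *Bax* and 0.31 for *Bcl2l11*, inside the dotted lines at 1.5-fold (0.585 on the log2 scale).

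Of the 10 members, 6 had an adjusted p under 0.05, 4 lower and 2 higher in CL_basal. Among all tested genes 45.3% met the same threshold, 22.6% lower and 22.7% higher, and among the 9831 genes with at least 400 counts it was 57.8%. A share of 6 in 10 was thus near that of genes of like depth. When a coefficient of variation of 0.2 between mice was assumed, in edgeR's exact test, 0 of 10 members had an adjusted p under 0.05, against 0.864% of all tested genes. At 1.5-fold and an adjusted p under 0.05, 0 of 10 members were called, against 13.1% of all tested genes (8.92% lower and 4.15% higher) and, among those with at least 400 counts, 3.50% lower and 1.51% higher. At 2-fold the count was also 0 of 10, against 6.22%. Values below 0 were found for 7 of 10 members and for 51.8% of all tested genes, or 46.3% of those with at least 400 counts. The median over the members was -0.16 on the log2 scale and that of all tested genes -0.01. The standard deviation of the log2 differences of all tested genes was 0.55, and 0.31 among genes with at least 400 counts, around medians of -0.01 and 0.02. Every member lay within 1 standard deviation of the median of all tested genes, while *Bcl2l1*, *Bax*, *Bak1* and *Bid*, 4 of 10, lay beyond 1 standard deviation of the median of the higher-count genes, on the lower side. The share of all higher-count genes beyond that limit is not given here, so no excess can be read from this count. *Bax* lay just beyond the 5th percentile of the higher-count genes, at -0.50.

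The balance of the family was then described by pairs, dividing each pro-survival gene by each pro-death gene within a library, which cancels the depth. Of the 21 pairs, 10 had a 95% interval of the difference that excluded 0, 6 with a higher and 4 with a lower ratio in CL_basal, and with counts halved 7 did. The pairs share genes and are not independent. Each difference follows from the member values given above, so the pairs describe those values again and add no further evidence. The ratio of *Mcl1* to *Bax* had the largest rise, from 12.48 in Ctrl_basal to 19.97 in CL_basal in TPM (log2 difference 0.68, 95% interval 0.49 to 0.86). *Mcl1* to *Bid* went from 37.1 to 53.7 (0.53, interval 0.33 to 0.74) and *Mcl1* to *Bak1* from 13.8 to 19.5 (0.50, interval 0.34 to 0.65). *Mcl1* was higher relative to 6 of its 7 partners, 5 of them with an interval that excluded 0, and 3 of them, *Bax*, *Bid* and *Bak1*, with counts halved. The exception was *Bcl2l11*, against which it went from 39.8 to 36.1 (-0.14, interval -0.27 to -0.01, and -0.32 to 0.04 with counts halved).

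The largest fall was that of *Bcl2l1* to *Bcl2l11*, from 2.07 in Ctrl_basal to 1.32 in CL_basal (log2 difference -0.65, 95% interval -0.83 to -0.47). *Bcl2* to *Bcl2l11* went from 0.515 to 0.378 (-0.45, interval -0.66 to -0.23), so all 3 pro-survival genes were lower relative to *Bcl2l11*. *Bcl2l1* to *Pmaip1* went from 0.805 to 0.622 (-0.37, interval -0.56 to -0.18). Relative to the effectors *Bcl2l1* did not separate the libraries: its difference was 0.17 against *Bax* (interval -0.05 to 0.39) and -0.01 against *Bak1* (interval -0.21 to 0.19). *Bcl2* to *Bax* went from 0.162 to 0.209 (0.37, interval 0.12 to 0.63). The ratios therefore moved in opposite directions, upward for most pairs with *Mcl1* and downward for pairs with *Bcl2l11*.

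**Figure D3:**
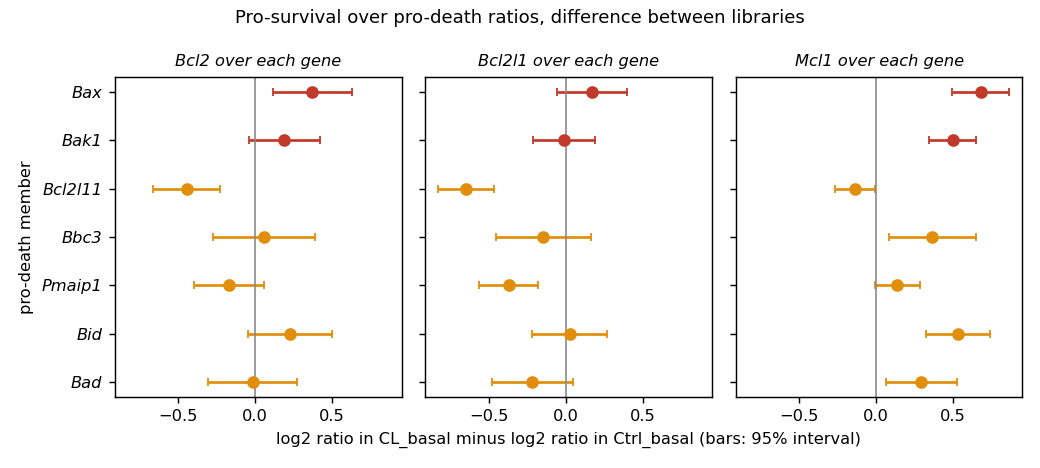
Difference between the libraries (CL_basal minus Ctrl_basal, log2) of the ratio of each pro-survival to each pro-death member, for all 21 pairs, with 95% exact intervals for counting error. Values run from -0.65 for *Bcl2l1* to *Bcl2l11* up to 0.68 for *Mcl1* to *Bax*.

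The promoters of the members at both ends of the range, *Bcl2l11* and *Bax*, are shown so that the sequence before each start can be read beside its difference. They are the 250 bases before a RefSeq start in GRCm38.p6, printed in the direction of transcription. For *Bax* this is the one start and for *Bcl2l11* the first of 2, the second of which held no FOXO letters. Capitals mark FOXO or E-box letters found by a search for exact letters. The GC boxes that the same search found in both sequences stay in lower case.
Bcl2l11, chr2:128125788-128126037, plus strand: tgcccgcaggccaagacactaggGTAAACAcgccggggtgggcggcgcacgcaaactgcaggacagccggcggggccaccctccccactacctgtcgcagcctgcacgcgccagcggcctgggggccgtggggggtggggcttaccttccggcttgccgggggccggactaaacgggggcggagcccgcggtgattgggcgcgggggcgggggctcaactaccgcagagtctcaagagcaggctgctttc
Bax, chr7:45466899-45467148, minus strand: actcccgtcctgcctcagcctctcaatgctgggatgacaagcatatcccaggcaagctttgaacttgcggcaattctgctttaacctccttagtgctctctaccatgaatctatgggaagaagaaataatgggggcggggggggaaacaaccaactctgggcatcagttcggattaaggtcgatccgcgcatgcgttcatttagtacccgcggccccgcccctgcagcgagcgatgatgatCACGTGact
In *Bcl2l11* the capitals mark GTAAACA, the core letters of FOXO sites, 227 to 221 bases before the start. In *Bax* they mark CACGTG, an E-box, 9 to 4 bases before the start. RefSeq windows were matched for 9 of the 10 members, 15 windows in all, *Pmaip1* being the other. GTAAACA, read on both strands, was found in 2 of the 15, one of *Bcl2l11* and one of *Bbc3*, and in 3.17% of 32851 windows of the same length over all genes. The E-box was in 2 of the 15, of *Bax* and *Bbc3*, against 6.02% of all windows. The GC box GGGCGG was in 10 of the 15 windows and in 32.7% of all. The AP-1 letters TGACTCA and the CHOP-ATF4 letters TGATGCAA were in 0 of the 15, against 4.46% and 0.791% of all windows. The matches describe letters and no binding was measured.

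Of the 15 other Bcl2 family genes, 11 were tested, of which 4 were lower and 1 was higher with an adjusted p under 0.05, and their median was -0.21 (-0.34 to -0.13 over the alternatives). The share of 45.5% that passed was near the 45.3% of all tested genes. *Bcl2l14*, a less studied relative, had 90 counts in Ctrl_basal and 30 in CL_basal (log2 difference -1.53, 95% interval -2.24 to -0.98; adjusted p = 1.71e-07, exact binomial test), a difference past 2-fold. *Bcl2a1b*, a copy of the pro-survival gene A1, had 4 and 24 counts (2.11, interval 1.04 to 4.57; adjusted p = 0.000695, exact binomial test). Its near-identical copies *Bcl2a1d*, at 18 and 24, and *Bcl2a1a*, at 10 and 6 and too low to test, did not show a like difference, and reads of these copies can be split between them. It also shared 401 bases with *Gm29094* on the same strand, at 20 and 58 counts, so the value is uncertain. *Bcl2l2*, which encodes the pro-survival protein BCL-W, had 904 and 924 counts (0.03), and 594 of its bases were shared with *Gm20521*. *Bcl2l12* had 180 and 121 (-0.57, adjusted p = 0.00223, exact binomial test), and overlapped *Irf3* and *Gm15545*. *Bok*, a relative of the effectors, had 270 and 213 counts (-0.34, adjusted p = 0.0235, exact binomial test), and its interval with counts halved, -0.72 to 0.04, included 0.

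The mitophagy receptor gene *Bnip3l* was lower, with 1245 counts in Ctrl_basal and 910 in CL_basal (-0.46, interval -0.58 to -0.33; adjusted p = 3.94e-12, exact binomial test). Its relative *Bnip3* had 227 and 196 counts (-0.21) and did not pass the test. Neither did *Bcl2l13* (-0.05), *Bmf*, a BH3-only gene with 23 and 15 counts (-0.56), or *Bcl2l15* with 11 and 23 (0.94). The BH3-only genes *Bik*, with 8 and 11 counts, and *Hrk*, with 2 and 6, were too low to test. *Bcl2l10* had 0 counts in both libraries, which allows up to 3 counts, or 0.078 CPM, by the one-sided limit for a count of 0.

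Downstream of the family, the 10 genes of the apoptosome and of mitochondrial release held 4 that were lower and 1 that was higher with an adjusted p under 0.05 (median -0.09), or 50.0% against 45.3% of all tested genes. Of the 9 with at least 400 counts 4 passed, against 57.8% of all genes of that depth. *Vdac1*, a pore of the outer mitochondrial membrane, was lower at 2509 and 1962 counts (-0.36, interval -0.44 to -0.27). *Htra2*, a protease released with cytochrome c, was lower at 464 and 368 (-0.34), and shared bases with *Aup1* and *Loxl3*. *Endog*, a mitochondrial nuclease, was higher at 51 and 83 (0.68, interval 0.18 to 1.23, and -0.05 to 1.45 with counts halved), and shared 379 bases with *Spout1*. *Diablo*, which encodes the IAP antagonist SMAC, had 774 and 789 counts (0.02). *Cycs*, the cytochrome c gene, had 3592 and 3537 (-0.03) and *Apaf1*, the scaffold of the apoptosome, 477 and 470 (-0.03), so these 3 did not pass the test.

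Of the 9 caspases tested, 2 were lower and 2 were higher, or 44.4% against 45.3% of all tested genes. The inflammatory *Casp4* was higher, with 806 counts in Ctrl_basal and 984 in CL_basal (0.28; adjusted p = 0.000156, exact binomial test). *Casp2* was lower at 84 and 50 (-0.73, interval -1.29 to -0.23). *Casp8*, which cleaves BID, was lower at 1781 and 1610 (-0.15). The initiator *Casp9* had 54 and 53 counts (-0.03) and did not pass the test.

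The 8 tested inhibitors of apoptosis had 4 lower and 2 higher members, where 22.6% of all tested genes were lower and 22.7% higher. Of the 4 with at least 400 counts 4 passed in either direction, against 57.8% of all genes of that depth. The median of the inhibitors was -0.31, but 0.02 among those with at least 100 counts, so its direction rests on the genes with few counts. *Birc5*, which encodes survivin and is used in cell division, had 56 counts in Ctrl_basal and 27 in CL_basal (-1.004, interval -1.78 to -0.37). *Naip6* had 24 and 8 (-1.38, interval with counts halved -3.68 to 0.13) and belongs to a cluster of near copies, so its value is uncertain. *Birc6*, a very large ubiquitin ligase, was higher at 4555 and 5665 counts (0.31), and *Birc2* at 2624 and 2933 (0.16). *Birc3* was lower at 3532 and 3284 counts (-0.11). *Xiap*, at 1619 and 1477 (-0.14), was lower with the deposited counts, but its interval with counts halved, -0.28 to 0.01, included 0.

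In the death receptor pathway, 11 genes were tested, 2 of them lower and 3 higher, with a median of 0.07, which ran from -0.03 with no filter on low counts to 0.12 with at least 400 counts. This was 45.5%, near the 45.3% of all tested genes. *Fas*, a death receptor, was lower at 622 and 490 counts (-0.35), and so was the adaptor *Traf1* at 352 and 255 (-0.47). *Ripk1*, a kinase of the TNF receptor complex, was higher at 6223 and 8228 (0.40, interval 0.35 to 0.45), with 2108 bases shared with *Gm17084*. *Bag4*, a chaperone partner that silences death domains, was higher at 218 and 293 (0.42), and *Cflar*, which encodes the caspase-8 inhibitor FLIP, at 5543 and 6574 (0.24).

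The list of p53 and its target genes, which leaves out the members and shares *Fas* and *Tnfrsf10b* with the death receptor pathway, had 18 genes, all tested, 6 of them lower and 4 higher, with a median of -0.09 (-0.13 to -0.02 over the alternatives). The share that passed was 55.6% at any depth, against 45.3% of all tested genes. Of the 14 with at least 400 counts 9 passed, against 57.8% of all genes of that depth. *Trp53* itself was higher, at 1959 counts in Ctrl_basal and 2503 in CL_basal (0.35, interval 0.26 to 0.44; adjusted p = 1e-14, exact binomial test), as was *Mdm2*, its target and inhibitor, at 9513 and 11877 (0.32). *Sesn2*, a stress-induced regulator of growth signals, was higher at 1334 and 1833 (0.45). *Eda2r* was lower at 118 and 72 (-0.70) and *Trp53inp1* at 539 and 382 (-0.50). The p53 target genes among the members gave -0.51 for *Bax*, -0.19 for *Bbc3* and 0.03 for *Pmaip1*, the last 2 of which did not pass the test.

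Of the 18 regulators of the BH3-only genes and of *Mcl1*, all tested, 12 were higher and 1 was lower with an adjusted p under 0.05, where 22.7% of all tested genes were higher and 22.6% lower. Of the 16 regulators with at least 400 counts 12 passed in either direction, against 57.8% of all genes of that depth. The median of the list was 0.19, against -0.01 over all tested genes and 0.02 over those with at least 400 counts. *Foxo3*, a transcription factor known to induce *Bcl2l11*, had 1084 counts in Ctrl_basal and 1418 in CL_basal (0.38, interval 0.27 to 0.50), and *Foxo1* 1189 and 1502 (0.33, interval 0.22 to 0.44). *E2f1* had 51 and 78 counts (0.59, interval 0.08 to 1.148; adjusted p = 0.0483, exact binomial test), and its interval with counts halved included 0. *Usp9x*, the gene of a deubiquitinase that stabilizes MCL1, was higher at 7872 and 10626 counts (0.43, interval 0.39 to 0.47). The ubiquitin ligase genes *Huwe1* and *Fbxw7*, whose products mark MCL1 for breakdown, were also higher. *Huwe1* had 20621 and 24634 counts (0.25) and *Fbxw7* 2619 and 3335 (0.34). *Akt1*, a kinase that phosphorylates BAD and the FOXO factors, was the lower gene at 7683 and 7400 counts (-0.06, interval with counts halved -0.12 to 0.01), and *Trib3* had 422 and 383 (-0.14) and did not pass the test. *Foxo3*, *Foxo1*, *Huwe1* and *Fbxw7* lie outside the rule for named genes and were named after their values were seen. Genes with exons of at least 6000 bases, *Bcl2* and *Bcl2l11* among them, had a median of 0.02 and those under 2000 bases, *Bax* among them, a median of -0.03 over all tested genes. With the trend on gene length removed *Bcl2l11* stood at 0.28, *Bax* at -0.49 and the median of the regulators at 0.18, and with the trend on mean expression removed that median was 0.12.

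**Figure D4:**
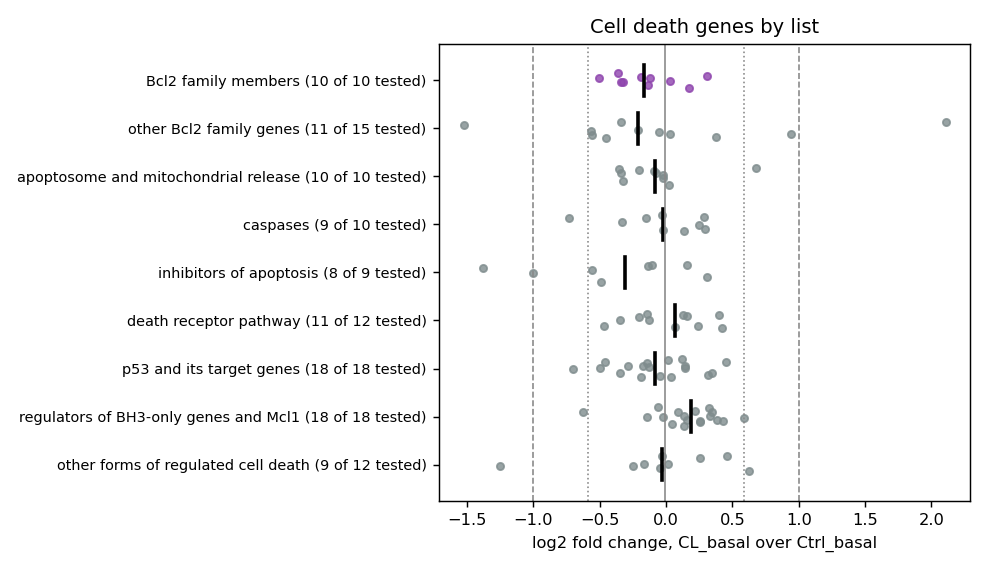
Log2 difference of CL_basal minus Ctrl_basal for each tested gene of the members and of 8 other lists of cell death genes, 1 point a gene, with the median of each list as a black bar, the median of all tested genes as a grey line and 1.5-fold and 2-fold as broken lines. The medians lie at -0.16 for the members, -0.31 for the inhibitors of apoptosis, which is 0.02 among those with at least 100 counts, and 0.19 for the regulators of BH3-only genes and *Mcl1*.

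Over the 102 other cell death genes, 92 were tested, of which 24 were lower and 28 higher with an adjusted p under 0.05, against 22.6% and 22.7% of all tested genes, or 56.5% against 45.3% in either direction. The share that passes depends on depth, and it was 57.8% among all tested genes with at least 400 counts. No excess of cell death genes can therefore be read from the 56.5%. At 1.5-fold, 6 were lower and 4 were higher, against 8.92% and 4.15% of all tested genes, and the median was -0.02 (-0.06 to 0.02 over the alternatives). With counts halved these counts were 2 and 2, with scaling by total counts 7 and 2, with at least 400 counts 1 and 1, and at a coefficient of variation of 0.2 they were 0 and 0. The members, with a median of -0.16 and none past 1.5-fold, were also better counted than many of these genes, the fewest counts among them being those of *Bbc3*, 229 and 201.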

How the data were processed

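RNA of sorted mammary basal cells was sequenced from control mice and from mice given clodronate liposomes, 1 library per group. What the authors deposited was a table of raw counts per gene, summed over annotated exons and laid out as featureCounts writes it, on GRCm38 and not normalized. The aligner, the use of strand and the handling of duplicates and of reads in overlapping genes are not given in the sources used here. A deposited log2 ratio of the libraries was not used. Sources differ on the RNA extraction kit.

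Counts were scaled with TMM factors from edgeR 4.0.16 under R 4.3.3, a scaling that assumes most genes do not differ: 0.987 for CL_basal and 1.013 for Ctrl_basal. Log2 differences used a prior count of 2. Each gene whose counts summed to 20 or more was tested with a two-sided exact binomial test on reads (scipy 1.17.1, Python 3.11.15), with Benjamini-Hochberg adjustment over 17356 genes. Intervals of 95% were exact (Clopper-Pearson for differences, Poisson for levels, the conditional odds ratio for pairs of members). No model with a spread between replicates can be fitted to 1 library per group. TPM used the exon lengths of the table. Scripts were tested on simulated data. Start and end of 8 of the 10 members were those of GENCODE M21. Promoters came from RefSeq (GRCm38.p6) and coding segments from GENCODE M21 transcripts.

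The members and the gene lists were chosen with earlier results of these data known. All 10 members are named. Of each other list, the genes past 2-fold and, among those whose counts summed to 100 or more, the 2 highest and the 2 lowest are named, with all detected genes of the Bcl2 family. *Bcl2l12*, *Bok* and others beyond these limits in that family fall under the last clause, while *Cycs*, *Apaf1*, *Casp8*, *Casp9*, *Cflar* and *Mdm2* were named for their roles after their values were seen. Some genes that the rule names are not reported here. Alternatives were other scalings (total counts, upper quartile, DESeq2 1.42.0 size factors), prior counts of 0.5 and 5, other filters on low counts, halved counts, removal of trends on mean expression or gene length, and an assumed coefficient of variation of 0.2 or 0.4.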

Additional observations from a re-analysis of the deposited data

How the results depend on the processing

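The 10 member differences were recomputed under the 8 alternatives that can move such a value, and 79 of the 80 values kept their direction and their side of the 1.5-fold and 2-fold thresholds. The exception was *Pmaip1*, at 0.03 with TMM scaling and -0.0048 with scaling by total counts. The other 6 alternatives change only the filter, the test or the threshold. No member was called at 1.5-fold under any of the 14. *Bax* ranged from -0.54 to -0.47, *Bcl2l1* from -0.37 to -0.33, *Mcl1* from 0.09 to 0.20 and *Bcl2l11* from 0.27 to 0.32. The number of members with an adjusted p under 0.05, 6 in the report, was 5 with counts halved, where *Bid* reached 0.0508, and 0 with edgeR's exact test at an assumed coefficient of variation of 0.2 or 0.4, so no member difference can be told from such a spread. Other cell death genes past 1.5-fold, 6 lower and 4 higher in the report, were 2 lower and 2 higher with counts halved, 0 and 0 at either assumed coefficient of variation, and 1 and 1 with at least 400 counts. That filter and the correction for gene length were chosen after seeing the data. Scaling by total counts gave 7 lower and 2 higher. With at least 100 counts the median of the inhibitors of apoptosis moved from -0.31 to 0.02 and that of the other Bcl2 family genes from -0.21 to -0.34, since fewer genes were tested. The median of the caspases, -0.02, was 0.10 with the trend on mean expression removed and 0.19 with at least 400 counts. Halving the counts widens the intervals of the pair ratios but cannot turn their direction. No paired analysis was possible because there was a single library on each side, and for the same reason none could be left out.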

Other observations

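Among genes of other forms of regulated cell death, 1 of 9 tested was past 2-fold, against 6.22% of all tested genes. *Slc7a11*, the cystine transporter whose loss opens cells to ferroptosis, had 2580 counts in Ctrl_basal and 1084 in CL_basal (log2 difference -1.25, 95% interval -1.36 to -1.152; adjusted p = 1.93e-137, exact binomial test). *Gpx4*, the enzyme that removes lipid peroxides, had 2584 and 2177 counts (-0.25, interval -0.33 to -0.17), and *Acsl4*, which makes the lipids that ferroptosis oxidizes, had 3961 and 4730 (0.25, interval 0.19 to 0.31). *Zbp1*, a nucleic acid sensor of necroptosis, had 390 and 603 counts (0.62, interval 0.44 to 0.81), and *Gsdmd*, the pore-forming gene of pyroptosis, had 167 and 231 (0.46, interval 0.17 to 0.76). The necroptosis genes *Ripk3* (-0.16) and *Mlkl* (-0.03) did not pass the test. Of the 12 genes of this list 9 were tested, 2 of them lower and 3 higher, with a median of -0.03 (-0.07 to 0.02 over the alternatives). The share that passed was 55.6%, against 45.3% of all tested genes. Of the 8 with at least 400 counts 4 passed, against 57.8% of all genes of that depth. *Acsl4*, *Ripk3* and *Mlkl* were named after their values were seen.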
